A study of Mus musculus with 15 samples.

Results

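The 8 common gamma chain cytokine receptor genes were Il2rg, Il2rb, Il2ra, Il15ra, Il7r, Il4ra, Il21r and Il9r of 48795 genes listed in each sample. They were chosen as the chains of 1 receptor family. The filter on low counts kept 7 of the 8 for testing, and Il9r did not pass it.

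Each of these genes encodes a chain of a receptor for a cytokine of the interleukin-2 family. Il2rg encodes the common gamma chain, which joins a private chain for interleukin 2, 4, 7, 9, 15 or 21 and carries JAK3, while the partner chain carries JAK1, and the signal runs through STAT proteins. Interleukin 15 and interleukin 7 are known for sustaining iNKT cells, T cells with a nearly fixed T cell receptor that recognise lipids on CD1d and that divide into NKT1, NKT2 and NKT17 subsets.

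RNA of sorted iNKT cells was sequenced in 15 samples, from untreated WT C57BL/6 mice aged 6 weeks, to compare the cells of 4 lymphoid tissues. The groups differ only by tissue in their labels, with 4 samples each from thymus, spleen and mesenteric lymph node (mLN) and 3 from inguinal lymph node (iLN), where replicate 1 was not analysed here. Cells bound the CD1d tetramer and an antibody to TCRβ and lacked B220, CD11b, CD11c and CD8, and per the labels replicates 3 and 4 form the first batch (8 samples) and replicates 1 and 2 the second batch (7 samples, of which 1 is from iLN). The total count per sample was between 1152702 (thymus replicate 2) and 8161474 in thymus, 4919511 and 8670570 in spleen, 4740370 and 7914302 in mLN, and 4080550 and 5360793 in iLN. The labels call the samples biological replicates and leave unsaid if each came from 1 mouse or from several, so the p-values measure the spread between samples. Lymph nodes were digested with enzymes before sorting whereas thymus and spleen were pressed through a strainer, so in comparisons of a lymph node with thymus or spleen the tissue and this step cannot be told apart.

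The 6 iNKT cell markers (Cd3e, Trbc1, Trbc2, Trav11, Zbtb16 and Slamf6) were detected in all 4 tissues. Their summed level, in TMM-normalized CPM (counts scaled by library size), was 2452 to 2684 in thymus, 1963 to 2799 in spleen, 2998 to 3383 in mLN and 2607 to 2928 in iLN, with Cd3e the most abundant. Over the 4 tissues edgeR called 1 of the 6 (Slamf6) and DESeq2 called 2, beside 3.38% and 7.37% of all genes. The list holds genes of T cells in general (Cd3e, Trbc1 and Trbc2), so its sum does not tell iNKT cells from other T cells. Trav11, of the canonical iNKT alpha chain, had means of 260, 180, 207 and 208 CPM in thymus, spleen, mLN and iLN. Zbtb16 had 121, 137, 198 and 229 CPM in the same order. RNA of both was thus present in every tissue. Sample levels and overlaps below are in CPM unless TPM (scaled to transcript length and a fixed sum, without the TMM factors) is named.

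Il2rg (ENSMUSG00000031304, chromosome X) encodes the chain shared by all receptors of the family. In replicates 1 to 4 it had 778, 662, 519.5 and 576 CPM in thymus and 673, 788, 645 and 655 CPM in spleen. It had 769, 918, 764 and 672 CPM in mLN, and 753, 716 and 1049 CPM in iLN replicates 2 to 4. The 4 ranges overlapped, with thymus replicate 3 the lowest and iLN replicate 4 the highest. The 4 tissues did not differ past the threshold of 0.01 (edgeR adjusted p = 0.245). The largest difference between 2 tissues, iLN against thymus, was a log2 fold change of 0.45 ± 0.16, where ± gives the SE here and for the fold changes below, with an edgeR adjusted p of 0.138, and 1 of 3 iLN samples lay above every thymus sample.

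Il2rb (ENSMUSG00000068227, chromosome 15) encodes the beta chain that the receptors for interleukin 2 and interleukin 15 share. In replicates 1 to 4 it had 938, 1272, 1495 and 1749 CPM in thymus and 912, 1300.2, 1385 and 1937 CPM in spleen. It had 679, 899, 861 and 978 CPM in mLN, and 740.5, 1312 and 785 CPM in iLN replicates 2 to 4. Thymus and spleen held the higher levels, but all 6 pairs of tissues overlapped, and within thymus and within spleen each sample of the first batch was above each of the second. Mean CPM in the first and in the second batch was 1622 and 1105 in thymus, 1661 and 1106 in spleen, and 919.9 and 789 in mLN. The lymph nodes were lower than spleen and thymus by a log2 fold change of −0.63 ± 0.13 (edgeR adjusted p = 0.00734), with batch in the model, and 7 of 7 lymph node samples lay below the thymus mean and the spleen mean. Within the first batch alone this was −0.75 (edgeR adjusted p = 0.0645) and within the second −0.54 (edgeR adjusted p = 0.331), in a range over all alternatives of 1.50e-06 to 0.331. The test over 4 tissues missed the threshold (edgeR adjusted p = 0.0257) and DESeq2 passed it (adjusted p = 0.00190), in a range over all alternatives of 1.21e-05 to 0.497. Without iLN replicate 3, the highest of the lymph node samples, edgeR passed it as well (adjusted p = 0.00867). The same test passed in edgeR with no filter on low counts (adjusted p = 1.21e-05).

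The Il2rb difference between lymph nodes and the other tissues was no longer called without thymus replicate 2 (−0.61, 0.0203), thymus replicate 3 (−0.65, 0.0164), thymus replicate 4 (−0.60, 0.0243), spleen replicate 2 (−0.61, 0.0178), spleen replicate 4 (−0.57, 0.0246), mLN replicate 1 (−0.62, 0.0144), mLN replicate 3 (−0.60, 0.0200), mLN replicate 4 (−0.63, 0.0162), iLN replicate 2 (−0.63, 0.0216) and iLN replicate 4 (−0.56, 0.0184), where the values are the log2 fold change and the edgeR adjusted p without that library. It was thus called in 5 of the 15 fits that leave out a library.

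Il2ra (ENSMUSG00000026770, chromosome 2) encodes the alpha chain, CD25, which raises the affinity of the interleukin 2 receptor. In replicates 1 to 4 it had 14.9, 5.15, 8.26 and 11.6 CPM in thymus and 103, 138, 118 and 155 CPM in spleen. It had 109.6, 116, 86.1 and 100.9 CPM in mLN, and 192, 219 and 314 CPM in iLN replicates 2 to 4. The thymus samples were all far below every other sample, the iLN samples were all above every other sample, and spleen and mLN overlapped. In TPM, iLN replicate 3 (53.7) was below spleen replicate 2 (54.9), so iLN and spleen overlapped. In thymus replicate 2, the library of lowest depth, the value rests on 7 counts, with an exact 95% Poisson interval of 2.07 to 10.6 CPM. Intervals of this kind cover counting error only. In these bulk samples, fewer cells that express a gene and less RNA per cell cannot be told apart.

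Il2ra differed over the 4 tissues (edgeR adjusted p = 9.35e-08), also in each batch alone (edgeR adjusted p = 2.30e-04 in the first and 0.00616 in the second, in a range over all alternatives of 1.37e-60 to 0.00616). Thymus was below spleen by a log2 fold change of −3.58 ± 0.26 (edgeR adjusted p = 1.12e-07), and the change was −3.77 and −3.43 within the first and second batch. Against thymus, mLN was higher by 3.26 ± 0.26 (edgeR adjusted p = 2.58e-07), or 3.21 and 3.33 within the batches. The log2 fold change of iLN against thymus was 4.49 ± 0.28 (edgeR adjusted p = 2.77e-08), or 4.72 and 4.08 within the batches. Each of these 3 pairs kept its call in all 26 alternatives, of which the second batch alone has 1 iLN sample, assumed to vary like the other groups. The lymph nodes together were above spleen and thymus together by 2.09 ± 0.17 (edgeR adjusted p = 1.60e-06), with 7 of 7 lymph node samples above every thymus sample and 3 of 7 above every spleen sample. Within the first batch this was 2.08, and within the second 1.99, where the call was lost (edgeR adjusted p = 0.0230, in a range over all alternatives of 2.62e-33 to 0.0230).

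Among the tissues outside the thymus, Il2ra was higher in iLN than in mLN by a log2 fold change of 1.22 ± 0.24, in 3 of 3 samples above every mLN sample, and missed the threshold (edgeR adjusted p = 0.0134). It passed with DESeq2 (adjusted p = 7.38e-05), with no filter on low counts (edgeR adjusted p = 4.42e-05), without thymus replicate 1 (1.18, edgeR adjusted p = 0.00975) and without thymus replicate 2 (1.24, edgeR adjusted p = 0.00789), in a range of 4.42e-05 to 0.668. Against spleen, iLN was higher by 0.91 ± 0.24 (edgeR adjusted p = 0.0381), with no overlap in CPM but an overlap in TPM. This difference passed with DESeq2 (adjusted p = 0.00438) and with no filter (edgeR adjusted p = 0.00481), in a range of 0.00438 to 0.706. The log2 fold change of mLN against spleen was −0.32 ± 0.22 (edgeR adjusted p = 0.632).

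Il7r (ENSMUSG00000003882, chromosome 15) encodes the alpha chain of the interleukin 7 receptor, CD127. In replicates 1 to 4 it had 927, 832, 569 and 609.6 CPM in thymus and 519.9, 548, 442 and 450.1 CPM in spleen. It had 633, 775, 526 and 479 CPM in mLN, and 1238, 986 and 1631 CPM in iLN replicates 2 to 4. In CPM the iLN samples were all above every other sample, and every thymus sample was above every spleen sample. The mLN samples overlapped with thymus and with spleen. In thymus, spleen and mLN each sample of the second batch was above each of the first, the reverse of Il2rb in thymus and spleen. In TPM, iLN replicate 3 (323) was below thymus replicate 2 (442) and mLN replicate 2 (344). Thymus replicate 3 (187 TPM) was below spleen replicate 1 (272 TPM), so neither separation held in TPM. Il7r has 1 listed transcript, and TPM does not carry the TMM factors that CPM carries. These were 0.838 in thymus replicate 3 and 1.173 in spleen replicate 1.

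Il7r differed over the 4 tissues (edgeR adjusted p = 4.42e-05), within the first batch at an edgeR adjusted p of 0.00695 and within the second, where iLN has 1 sample, at 0.0801, in a range over all alternatives of 6.21e-16 to 0.0801. Against spleen, iLN had more Il7r, with a log2 fold change of 1.47 ± 0.17 (edgeR adjusted p = 3.06e-05), or 1.53 and 1.19 within the first and second batch, of which the second was not called. The adjusted p ranged over 8.32e-15 to 0.0595 in the alternatives. Against mLN, iLN was higher by 1.18 ± 0.17 (edgeR adjusted p = 6.08e-04), or 1.38 and 0.80 within the batches, called in neither, and its adjusted p ranged over 5.20e-09 to 0.307. That call was also lost without the batch covariate, with the 2 tissues only and in both limma fits. The difference of iLN from thymus was smaller, 0.90 ± 0.17 (edgeR adjusted p = 0.00376), or 1.14 and 0.49 within the batches, called in neither. Leaving out iLN replicate 4, the highest of all samples and the first-batch library of lowest nuclear rRNA share (2.88%, against 15.1% in iLN replicate 3), gave 0.60 (edgeR adjusted p = 0.0211), no longer called, and the call was also lost without thymus replicate 2 (0.91, 0.0134), thymus replicate 3 (0.84, 0.0269) and thymus replicate 4 (0.87, 0.0239), with the log2 fold change and edgeR adjusted p in parentheses. The range of the adjusted p over all alternatives was 1.80e-05 to 0.633. The call of iLN against spleen and that of iLN against mLN held in all 15 fits that leave out a library. Thymus was above spleen by 0.56 ± 0.15, which did not pass (edgeR adjusted p = 0.0610) although the samples did not overlap in CPM.

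For the lymph nodes together against spleen and thymus together, Il7r had a log2 fold change of 0.59 ± 0.11 (edgeR adjusted p = 0.00410), just past the fold change of 1.5 (0.585 on the log2 scale), and 3 of 7 lymph node samples, all of iLN, lay above every spleen and thymus sample while mLN taken alone was not above thymus (−0.28 ± 0.15). Within the first and second batch it was 0.65 and 0.44, called in neither. This call was lost without thymus replicate 2 (0.59, 0.0109), thymus replicate 3 (0.56, 0.0164), thymus replicate 4 (0.58, 0.0148), spleen replicate 1 (0.57, 0.0111), spleen replicate 2 (0.59, 0.0112), spleen replicate 4 (0.61, 0.0104), mLN replicate 2 (0.54, 0.0158), mLN replicate 3 (0.59, 0.0107) and iLN replicate 4 (0.44, 0.00756), with the log2 fold change and edgeR adjusted p in parentheses. The range of the adjusted p over all alternatives was 3.07e-05 to 0.306.

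**Figure D1:**
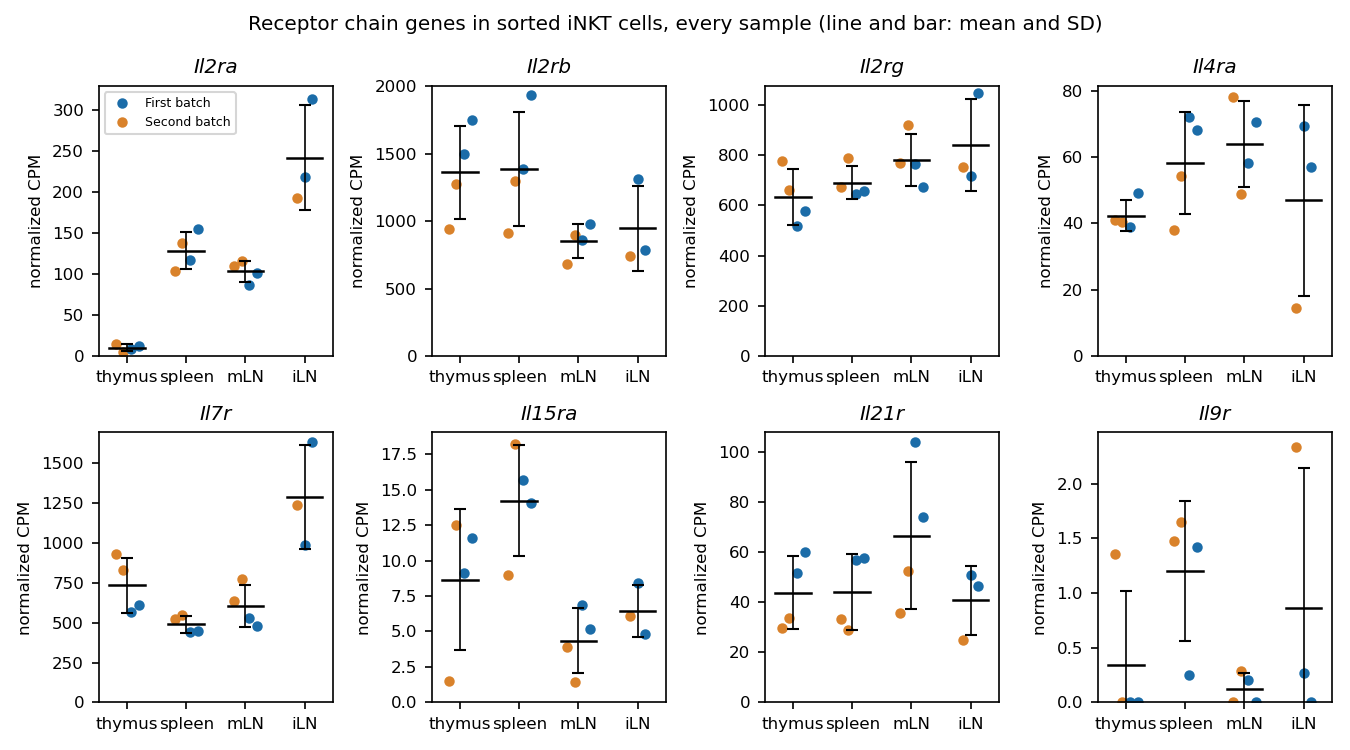
Normalized CPM (vertical axis, linear, from 0) of the 8 receptor chain genes in every sample by tissue, coloured by batch, with the mean and SD. The 4 thymus samples of Il2ra lie between 5.15 and 14.9 CPM and the 3 iLN samples between 192 and 314 CPM, and for Il7r the 3 iLN samples lie above all others.

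Il2ra and Il7r, the members called over 4 tissues, were both highest in iLN, so their promoters are shown. RefSeq promoters (GRCm38.p6, 250 bases before to 50 from the start) were found for 7 of the 8 genes, and Il2rb had none. The Il2ra window is chr2:11642542-11642841 on the + strand and the Il7r window is chr15:9529827-9530126 on the − strand. The Il7r window lies inside the Ensembl gene model behind the counts, whose 5′ end is at base 9530176, so it precedes the RefSeq start but not the Ensembl start. Capitals mark every match, on either strand, to GGAAGT, to TGTGGTT, to TTCNNNGAA or to the NF-kB consensus, 4 motifs chosen with the sequences in view.
Il2ra: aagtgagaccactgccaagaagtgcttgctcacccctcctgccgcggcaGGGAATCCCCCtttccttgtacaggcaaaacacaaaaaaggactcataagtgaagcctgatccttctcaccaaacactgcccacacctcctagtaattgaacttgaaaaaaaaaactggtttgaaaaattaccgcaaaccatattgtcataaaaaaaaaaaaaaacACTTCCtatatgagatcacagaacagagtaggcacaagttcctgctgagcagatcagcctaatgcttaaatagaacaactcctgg
Il7r: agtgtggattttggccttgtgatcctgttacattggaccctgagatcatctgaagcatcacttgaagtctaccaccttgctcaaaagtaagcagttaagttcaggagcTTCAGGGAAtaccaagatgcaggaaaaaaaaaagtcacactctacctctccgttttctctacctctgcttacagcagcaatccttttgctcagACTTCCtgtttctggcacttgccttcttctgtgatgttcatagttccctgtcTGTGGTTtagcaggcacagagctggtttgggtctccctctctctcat
GGAAGT lay on the opposite strand in both windows, as ACTTCC from −35 in Il2ra and from −49 in Il7r, counted from the RefSeq start. TTCNNNGAA, which reads alike on both strands, occurred in Il7r from −142, and TGTGGTT in Il7r from 4. The NF-kB consensus matched Il2ra from −201 on both strands and, overlapping it, from −200 on the opposite strand, and no match of a motif overlapped a match of another. Members that were not called held matches too, GGAAGT in Il15ra from 42, the NF-kB consensus in Il4ra from 21 and TGTGGTT in Il9r from −83. Of 32851 promoters of the same length, 23.8% held GGAAGT, 8.3% TTCNNNGAA, 5.27% TGTGGTT and 4.51% the NF-kB consensus. A match describes the letters only, and whether it is a bound site or bears on the levels was not tested.

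Il15ra (ENSMUSG00000023206, chromosome 2) encodes the alpha chain that binds interleukin 15 and can present it to other cells. Its expected counts were between 10 and 121 per sample. In CPM it was 1.48, 12.5, 9.09 and 11.6 in thymus replicates 1 to 4, 8.98, 18.2, 15.7 and 14.03 in spleen, 3.89, 1.45, 6.87 and 5.201 in mLN, and 6.10, 8.40 and 4.79 in iLN replicates 2 to 4. In CPM every spleen sample was above every lymph node sample, and thymus replicate 1 stood far below the other thymus samples. In TPM, iLN replicate 2 had the highest value of all samples, 15.5, against at most 15.1 in spleen. The mLN level differed from spleen by a log2 fold change of −1.80 ± 0.58, which missed the threshold (edgeR adjusted p = 0.164). Over the 4 tissues the edgeR adjusted p was 0.216.

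Il4ra (ENSMUSG00000030748, chromosome 7) encodes the chain that binds interleukin 4 and, in a second type of receptor, interleukin 13. It ranged from 14.5 CPM in iLN replicate 2 to 78.3 CPM in mLN replicate 1, with a median over the 15 samples of 54.4 CPM. The 4 tissues overlapped (edgeR adjusted p = 0.439), and the other 2 iLN samples were at 69.4 and 57.0 CPM. Without iLN replicate 2, the log2 fold change of iLN against thymus turned from −0.0546 ± 0.34 to 0.44.

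Il21r (ENSMUSG00000030745, chromosome 7) encodes the private chain of the interleukin 21 receptor. It ranged from 24.9 CPM in iLN replicate 2 to 104 CPM in mLN replicate 3, with a median of 50.9 CPM. Samples of the first batch were the higher ones in thymus, spleen, mLN and iLN, and the tissues overlapped. Over the 4 tissues the edgeR adjusted p was 0.0668. The difference of iLN from mLN, −0.84 ± 0.22, missed the threshold (edgeR adjusted p = 0.0657), with 1 of 3 iLN samples below every mLN sample, and passed with DESeq2 (adjusted p = 0.00995), in a range of 0.00995 to 0.709.

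Il9r (ENSMUSG00000020279, chromosome 11) encodes the private chain of the interleukin 9 receptor. It had 62 counts over the 15 samples, with 0 counts in 6 of them. Thymus had 11 counts in replicate 1 and 0 in the other 3, spleen had 15.02, 11, 1 and 6.75 counts in replicates 1 to 4, and mLN had 0, 2, 1 and 0. In iLN replicates 2 to 4 it had 13, 1 and 0 counts. The highest level was 2.33 CPM, in iLN replicate 2. A count of 0 allows up to 3 counts, which is 2.21 CPM in thymus replicate 2 and 0.389 CPM in mLN replicate 1. With no filter on low counts edgeR gave an adjusted p of 0.641 over the 4 tissues, and a log2 fold change of −3.22 ± 1.68 for mLN against spleen (adjusted p = 0.518), where 3 of 4 spleen samples lay above every mLN sample. In the second batch alone these adjusted p were 0.806 and 0.657.

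Counted over the members, 2 of 7 tested (Il2ra and Il7r) were called over the 4 tissues, where 3.38% of 13600 genes were called at an adjusted p under 0.01. For a pair of tissues a call also needs a fold change over 1.5. Thymus against spleen called 1 of 7 (Il2ra, lower), against 1.32% of all genes. For mLN against spleen, edgeR called 0 of 7, against 0.654% of all genes, with 3 at an unadjusted p under 0.05 (Il2rb, Il15ra and Il21r) and 0 called by DESeq2 or limma. With no filter on low counts, edgeR called Il2rb there (−0.66, adjusted p = 0.00112, in a range of 0.00112 to 0.533), and also in iLN against spleen (−0.63, adjusted p = 0.00587, in a range of 0.00587 to 0.554) and mLN against thymus (−0.63, adjusted p = 0.00160, in a range of 0.00160 to 0.542). For iLN against spleen 1 of 7 was called (Il7r, higher), against 1.55%. For mLN against thymus 1 of 7 was called (Il2ra, higher), against 1.6%, and for iLN against thymus 2 of 7 (Il2ra and Il7r, higher), against 1.5%. For iLN against mLN 1 of 7 was called (Il7r, higher), against 0.471%. The lymph nodes against spleen and thymus called 3 of 7, Il2ra and Il7r higher and Il2rb lower, against 1.72%.

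The comparisons share samples, so their calls are not independent, and with 7 genes tested a single call moves the share of the members by more than any of the percentages over all genes. The median log2 fold change of the 7, with that over all genes tested in parentheses, was −0.13 (−0.01) for thymus against spleen, 0.18 (3.04e-04) for mLN against spleen, −0.27 (0.00927) for iLN against spleen and 0.30 (0.0270) for mLN against thymus. It was −0.0546 (0.0259) for iLN against thymus, 0.15 (−4.50e-04) for iLN against mLN and 0.15 (0.0171) for the lymph nodes against spleen and thymus.

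**Figure D2:**
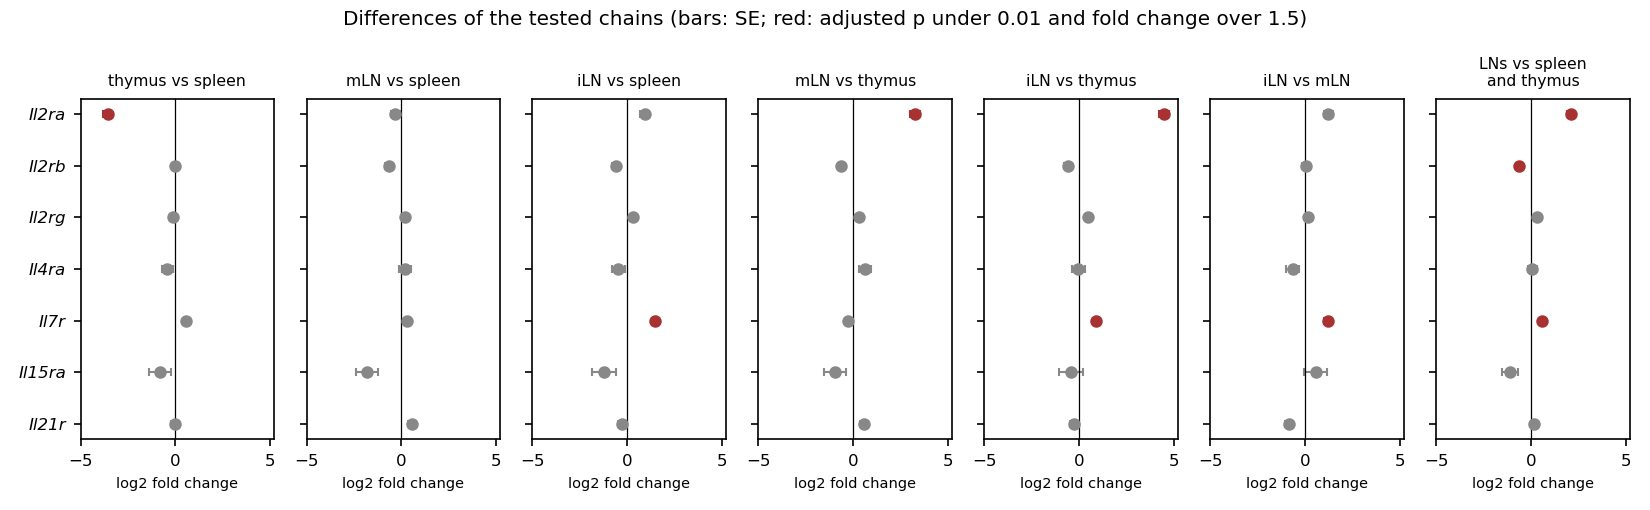
Log2 fold change (horizontal axis) of the 7 tested genes in each comparison, with SE as bars and called genes in red. Il2ra spans the widest range, from −3.58 in thymus against spleen to 4.49 in iLN against thymus, and the comparisons share samples.

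Levels of different genes are compared per transcript length, in TPM. In thymus the order of the means was Il2rb, Il2rg, Il7r, Il21r, Il4ra, Il15ra, Il2ra and Il9r. The mean TPM was 667 ± 158 (SD, n = 4) for Il2rb, 565 ± 181 for Il2rg, 311 ± 125 for Il7r and 3.08 ± 1.21 for Il2ra. Il2rb and Il2rg could not be told apart beyond their spread. The means of Il15ra and Il2ra differed by 4.66 TPM, beside a larger SD of 4.11, with overlapping ranges and Il15ra above in 3 of 4 samples. The ranges of Il2rg and Il7r overlapped as well, although Il2rg was above Il7r in 4 of 4 samples.

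In spleen the order was Il2rb, Il2rg, Il7r, Il2ra, Il4ra, Il21r, Il15ra and Il9r, with a mean TPM of 684 ± 200.1 (SD, n = 4) for Il2rb, 613 ± 167 for Il2rg, 209 ± 67.1 for Il7r and 46.5 ± 11.1 for Il2ra. Il2rb was above Il2rg in 2 of 4 samples, and Il4ra above Il21r in 1 of 4, so neither pair has an order beyond its spread. Il2ra and Il4ra overlapped, with Il2ra above in 4 of 4 samples.

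In mLN the order was Il2rg, Il2rb, Il7r, Il21r, Il2ra, Il4ra, Il15ra and Il9r, with a mean TPM of 701 ± 91.8 (SD, n = 4) for Il2rg, 446 ± 80.03 for Il2rb, 259.9 ± 60.04 for Il7r and 37.9 ± 5.55 for Il2ra. Here Il2rg was above Il2rb in 4 of 4 samples with no overlap, Il2rb was above Il7r in 4 of 4 although the ranges overlapped, and Il21r and Il2ra could not be ordered (2 of 4). In iLN the order was Il2rg, Il7r, Il2rb, Il2ra, Il21r, Il4ra, Il15ra and Il9r, with a mean TPM of 764 ± 272 (SD, n = 3) for Il2rg, 565 ± 238 for Il7r, 467 ± 52.5 for Il2rb and 78.8 ± 31.8 for Il2ra. Il2rg was above Il7r in 3 of 3 iLN samples and Il7r above Il2rb in 2 of 3, and in iLN Il2rg and Il7r, Il7r and Il2rb, Il21r and Il4ra, and Il4ra and Il15ra were pairs of neighbours with overlapping ranges. TPM of Il4ra and of Il15ra also depends on how fragments were assigned to transcripts, since their counts per TPM relative to Il7r varied 3.09-fold and 3.88-fold between samples, against 1.37-fold for Il2ra and less for Il2rb, Il2rg and Il21r.

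**Figure D3:**
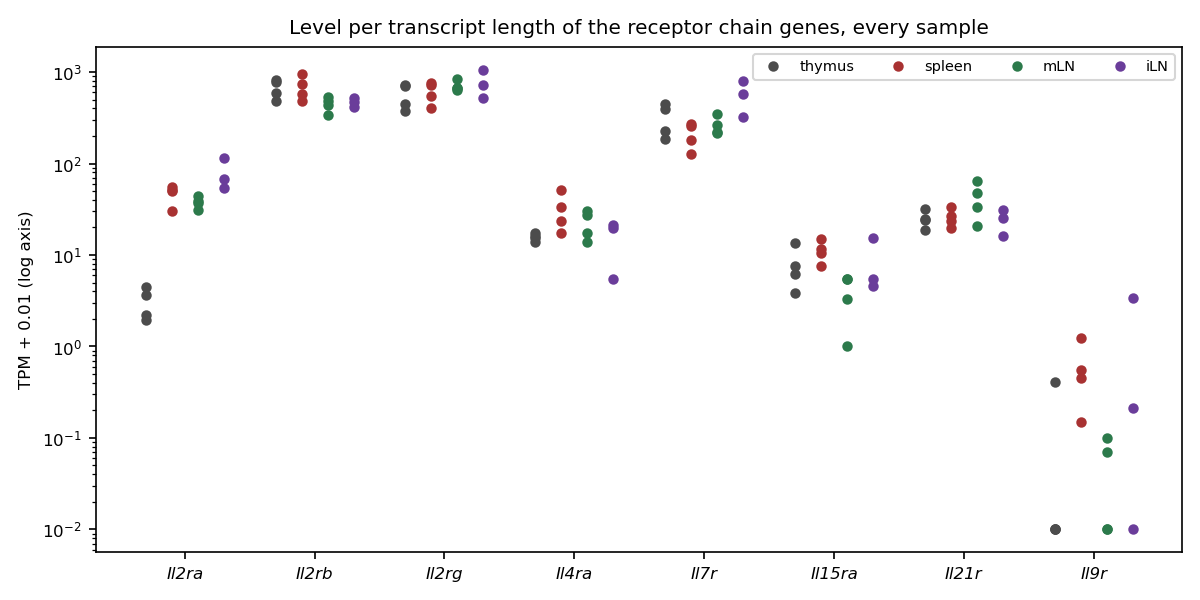
TPM plus 0.01 (vertical axis, log scale) of the 8 genes in every sample by tissue. Il2rg, Il2rb and Il7r sit highest in every tissue, Il9r is lowest, and Il2ra rises from 1.95 to 4.51 TPM in thymus to 53.7 to 114 TPM in iLN.

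Ratios within a library do not depend on library size. The TPM ratio of Il7r to Il2rg was 0.553, 0.605, 0.505 and 0.497 in thymus replicates 1 to 4 and 0.375, 0.334, 0.317 and 0.328 in spleen. It was 0.392, 0.411, 0.331 and 0.337 in mLN and 0.791, 0.628 and 0.759 in iLN replicates 2 to 4. Within each tissue the ratio was higher in the second batch than in the first. Every iLN library was above every thymus library, at the nearest 0.628 against 0.605. Every thymus library was above every spleen and mLN library. These ratios were given no test.

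The ratio of Il2ra to Il2rg was 0.00577 ± 0.00226 (SD, n = 4) in thymus, 0.0767 ± 0.00897 in spleen, 0.0545 ± 0.00937 in mLN and 0.102 ± 0.00751 (n = 3) in iLN, and no 2 tissues overlapped. The lowest iLN value, 0.0941, was above the highest spleen value, 0.0899. The ratio of Il2rb to Il7r had its lowest mean in iLN, with a range that overlapped those of thymus and mLN, at 2.43 ± 1.07 in thymus, 3.49 ± 1.32 in spleen, 1.79 ± 0.546 in mLN and 0.971 ± 0.554 in iLN. This ratio was higher in the first batch than in the second in thymus, spleen and mLN. In iLN it was 0.721 and 0.585 in replicates 2 and 4 and 1.61 in replicate 3.

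**Figure D4:**
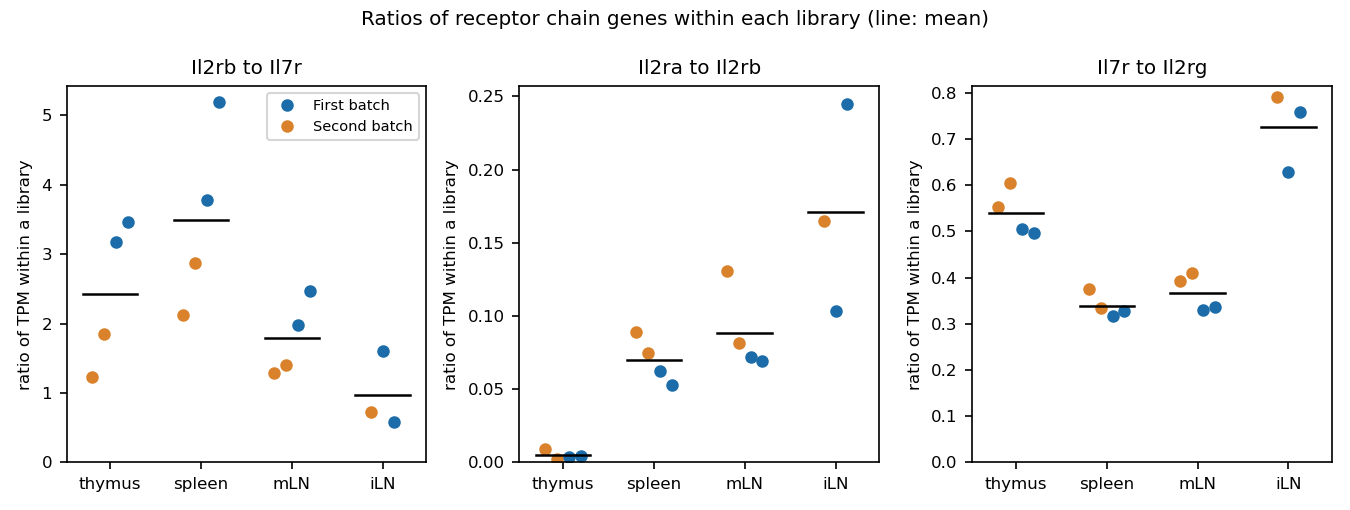
Ratio of TPM within each library (vertical axis, linear, from 0) for 3 pairs of genes by tissue, coloured by batch, with lines at the means. The ratio of Il7r to Il2rg separates iLN (0.628 to 0.791) from thymus (0.497 to 0.605) and thymus from spleen and mLN.

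As a share of the summed TPM of the 8 genes, Il7r made up 19.1% ± 4.54 (SD) in thymus, 12.8% ± 2.60 in spleen, 17.1% ± 2.71 in mLN and 28.6% ± 5.59 in iLN. Il2ra made up 0.200% ± 0.0795, 2.86% ± 0.138, 2.53% ± 0.494 and 4.01% ± 0.511 in the same order. The summed TPM itself was 1595 ± 349 (SD) in thymus, 1622 ± 361 in spleen, 1513 ± 166 in mLN and 1924 ± 523 in iLN, with overlapping ranges. The Il2rg share was 35.05% ± 6.26, 37.7% ± 5.34, 46.3% ± 2.86 and 39.1% ± 3.58 and that of Il2rb 42.6% ± 10.1, 42.3% ± 7.74, 29.5% ± 4.45 and 25.7% ± 8.77. The Il7r shares of iLN and thymus overlapped.

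Some members lie beside each other. Il2ra and Il15ra are 12.1 kb apart on chromosome 2, and Il4ra and Il21r 24.0 kb apart on chromosome 7. In CPM, Il2ra was lowest in thymus and highest in iLN while the mean of Il15ra was highest in spleen and lowest in mLN. Il4ra and Il21r both had their highest mean in mLN, at 64.01 ± 13.1 and 66.7 ± 29.4 CPM (SD). Their ranges in mLN overlapped those of the other tissues. In TPM the mean of Il4ra was highest in spleen, at 31.4 against 22.3 in mLN, and that of Il21r in mLN.

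Over the 15 samples, which share tissues and batches, and among the 10148 genes whose mean reached 5 CPM, the log2 levels most like Il2ra were those of Rora (r = 0.950, rho = 0.793, r = 0.973 in the first and 0.974 in the second batch), Pou2f2 (r = 0.940, rho = 0.811, r = 0.968 in the first and 0.914 in the second batch) and Tnfrsf25 (r = 0.934, rho = 0.800, r = 0.929 in the first and 0.961 in the second batch). Those most like Il7r were Zc3h13 (r = 0.941, rho = 0.943, r = 0.978 in the first and 0.852 in the second batch), S100a11 (r = 0.899, rho = 0.896, r = 0.936 in the first and 0.948 in the second batch) and Icos (r = 0.898, rho = 0.789, r = 0.939 in the first and 0.787 in the second batch). These correlations are descriptions with no test, and the samples fall into tissues. Rora had a mean of 71.8 CPM in thymus, 345 in spleen, 254 in mLN and 361 in iLN, so it was nearly as high in spleen as in iLN, unlike Il2ra. Icos, which is also an NKT2 marker, had 407 CPM in thymus, 294 in spleen, 406 in mLN and 864 CPM in iLN.

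Of 45 other genes in 6 lists, 37 were tested and 8 were called over the 4 tissues, where 3.38% of all genes were called. The lists include 13 other cytokine receptors from outside the pathway, which gave 5 of the 8 calls. Of the 8 ligands, 3 were tested and edgeR called 0 over the 4 tissues, with 1 at an unadjusted p under 0.05, 1 called by DESeq2 and 0 by limma. Il4, Il13 and Il21 were the 3 ligands tested. Il7, the ligand of Il7r, had 1 count in all, and Il9 had 0. Of the 3 partner chains, 1 (Crlf2, which joins Il7r for TSLP) was tested and 0 were called by edgeR, DESeq2 or limma, with 0 at an unadjusted p under 0.05.

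All 7 JAK and STAT genes were tested, and edgeR called 0 over the 4 tissues, beside 3.38% of all genes. Of the 7, 3 had an unadjusted p under 0.05 and 0 were called by DESeq2 or limma. Jak3, which binds the common gamma chain, had a mean of 12.8 ± 5.30 TPM (SD) in thymus, 17.8 ± 5.14 in spleen, 19.7 ± 5.74 in mLN and 22.2 ± 10.2 in iLN, with overlapping levels, against 565 to 764 TPM for the means of Il2rg. The median log2 fold change of the 7 genes for the lymph nodes against spleen and thymus was 0.30, beside 0.02 over all genes.

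Of the 6 feedback genes, Ptpn6 was called over the 4 tissues, at 212 ± 62.2 CPM (SD) in thymus and 61.4 ± 8.32 CPM in spleen (log2 fold change 1.75 ± 0.22, edgeR adjusted p = 9.47e-05), with 4 of 4 thymus samples above every spleen sample. Cish, which STAT5 induces, was called in iLN against spleen, where it was lower (−1.81 ± 0.34, edgeR adjusted p = 0.00376), at 15.7 ± 6.14 CPM in iLN and 53.3 ± 5.04 CPM in spleen, with 3 of 3 iLN samples below every spleen sample. Mean Cish was lowest in iLN, where Il2ra and Il7r were highest, beside 43.8 CPM in thymus and 41.4 CPM in mLN. EdgeR did not call Cish in iLN against thymus or against mLN. Over the 4 tissues DESeq2 called 2 of the 6 and limma 0, and in iLN against spleen DESeq2 called 1 and limma 0. Of all genes, edgeR called 3.38% over the 4 tissues and 1.55% in iLN against spleen, and DESeq2 7.37% and 4.34%. The median of the 6 was −1.20 in iLN against spleen, beside 0.01 over all genes. Of the 8 STAT5 target genes, Bcl2 and Myc were called over the 4 tissues, beside 3.38% of all genes, and both were higher in thymus than in spleen. DESeq2 also called 2 of the 8 over the 4 tissues, and limma 0. Bcl2 had 376 ± 71.7 CPM in thymus, 199 ± 31.9 in spleen, 206 ± 70.9 in mLN and 134 ± 18.9 in iLN, and iLN was below thymus by a log2 fold change of −1.41 ± 0.21 (edgeR adjusted p = 4.11e-04), with 3 of 3 iLN samples below every thymus sample.

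Of 13 other class I and II cytokine receptor genes, 12 were tested and 5 were called over the 4 tissues, Ifngr1, Ifngr2, Il6st, Il6ra and Il23r, beside 2 of 7 common gamma chain genes and 3.38% of all genes. DESeq2 called 5 of these receptors and 3 of the common gamma chain genes, where it called 7.37% of all genes. Limma called 2 and 1, where it called 1.6% of all genes on log2(TPM + 1) and 1.34% on log2(TPM + 0.1). For the lymph nodes against spleen and thymus, 4 of the 12 were called and all 4 were higher, beside 1.72% of all genes called, and limma called 2. In iLN against spleen, where 1.55% of all genes were called, edgeR called 3 of the 12 and limma 1. There Il23r was higher by 6.08 ± 0.94 (edgeR adjusted p = 8.82e-04), Ifngr2 by 2.70 ± 0.57 (edgeR adjusted p = 0.00945) and Il6ra by 1.64 ± 0.34 (edgeR adjusted p = 0.00902), each larger on the log2 scale than the change of Il7r and each with 3 of 3 iLN samples above every spleen sample. Whether the common gamma chain genes differ as a set from these receptors was not tested.

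For the lymph nodes against spleen and thymus, the median log2 fold change was 0.54 over the 3 tested ligands, 0.37 for the partner chain, −0.70 over the feedback genes and −0.19 over the STAT5 target genes, beside 0.02 over all genes and 0.15 over the 7 members. Of the STAT5 target genes Bcl2 was called there, and was lower. The other receptors had a median of 0.13.

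Marker lists of iNKT subsets also differed between the tissues. Over the 4 tissues edgeR called 3.38% of all genes, DESeq2 7.37%, and limma 1.6% or 1.34% by pseudocount. These shares stand beside the counts called in each marker list below. All 9 NKT17 markers were detected in each tissue. Their summed level was 40.97, 33.8, 23.1 and 21.2 CPM in thymus replicates 1 to 4, 30.99, 23.9, 43.4 and 27.7 in spleen, 62.6, 105, 76.98 and 111 in mLN, and 432, 472 and 879 in iLN replicates 2 to 4. The iLN samples were far above the rest, 8 of the 9 genes were called over the 4 tissues and Il1r1 had the highest mean in iLN, although Tmem176a was highest in replicate 2 and Sdc1 in replicate 3, and Il23r is in this list and among the other receptors. Of the 3 iLN samples, replicate 4 had the highest NKT17 sum, Il2ra and Il7r, while replicate 3 had a higher NKT17 sum and Il2ra than replicate 2 but a lower Il7r. The part of the NKT17 markers in the Il2ra and Il7r levels was not tested.

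All 8 NKT1 markers were detected, with a summed level of 1157, 1286, 1314 and 1343 CPM in thymus, 743, 982, 1311 and 1175 in spleen, 602, 577, 562 and 727 in mLN and 473, 525 and 346 in iLN. Klrb1c had the highest mean in each tissue, and 5 of the 8 genes were called over the 4 tissues, beside 3.38% of all genes. In the sum, thymus and spleen were above the lymph nodes without overlap, the direction of Il2rb. Not every gene followed this. Mean Ccl5 and Ifng were 22.6 and 7.91 CPM in thymus, below 54.5 and 15.1 CPM in mLN, with overlapping ranges for Ifng. For mLN against thymus 4 of the 8 were called, Ccl5 higher and 3 lower, beside 1.6% of all genes. The part of these markers in the Il2rb levels was not tested. All 6 NKT2 markers were detected, with sums of 636 to 798 CPM in thymus, 519 to 627 in spleen, 854 to 993 in mLN and 1167 to 1475 in iLN, and 3 of 6 called over the 4 tissues. Icos was the most abundant, at 864 CPM of a mean sum of 1316 CPM in iLN. Of the list only Icos was called in iLN against mLN, where 0.471% of all genes were called. Mean Gata3 was also higher in iLN than in mLN, while Il17rb and Izumo1r were lower. Plac8 had its lowest mean in iLN, 5.32 CPM against 29.9 in mLN, 16.5 in spleen and 8.67 in thymus.

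Il2ra is also a gene of regulatory T cells. The 5 regulatory T cell markers summed to 235, 175, 194 and 177 CPM in thymus, 405, 351, 259.9 and 254 in spleen, 295, 385, 226 and 259 in mLN and 482, 344 and 407 in iLN. The sum was mostly Ikzf2, with means of 193, 310, 252 and 382 CPM in thymus, spleen, mLN and iLN. The mean sums were 195, 317, 291 and 411 CPM in the same order. Over the 4 tissues edgeR called 2 of the 5 genes, DESeq2 4 and limma 0. The defining marker Foxp3 had a mean of 0.577 ± 0.466 CPM (SD) in thymus, 1.25 ± 0.818 in spleen, 10.6 ± 15.7 in mLN and 10.8 ± 4.34 in iLN, and in mLN it ranged from 0 to 33.95 CPM. In spleen, where Il2ra had 103 to 155 CPM, Foxp3 had at most 2.24 CPM. The part of these markers in the Il2ra levels was not tested.

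The 5 immature thymocyte markers summed to 24.6, 47.04, 9.09 and 10.2 CPM in thymus, with Rag1 the most abundant, and to 0.416 to 2.67 CPM in the other samples, where Rag1 had 1 count in all. Rag1 was called over the 4 tissues, 1 of 2 tested, and the part of these markers in the thymus levels of the members was not tested. The 4 naive T cell and precursor markers summed to 22.1 to 60.97 CPM in thymus, 57.6 to 112 in spleen, 152 to 173 in mLN and 157 to 183 in iLN, with 3 of 4 called over the 4 tissues. The part of these markers in the Il7r levels was not tested.

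**Figure D5:**
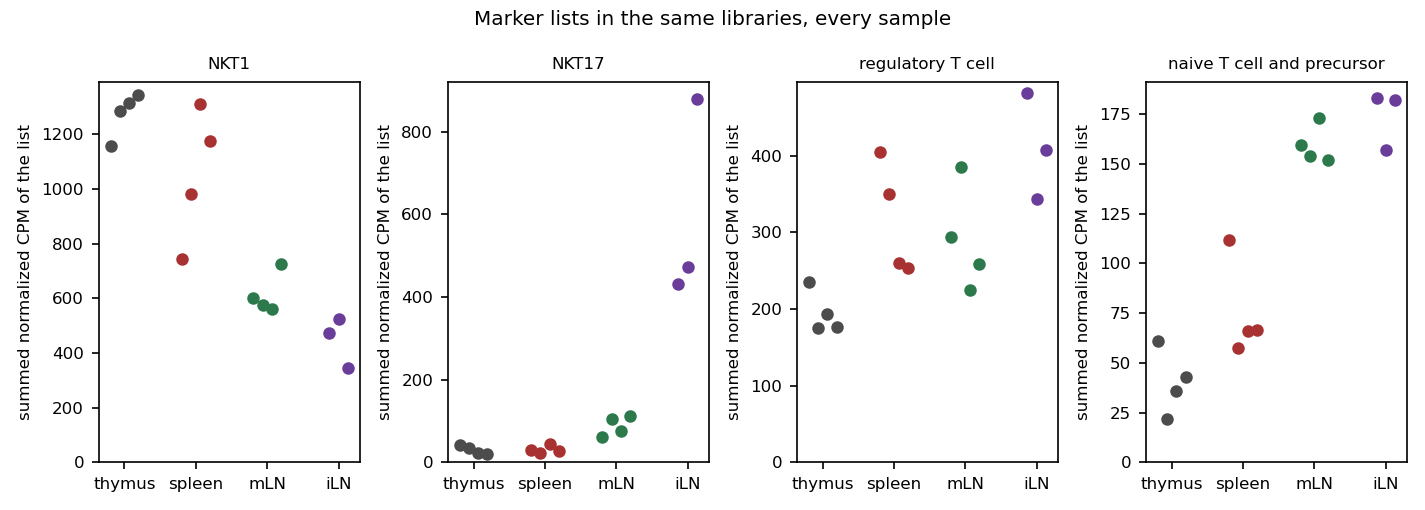
Summed normalized CPM (vertical axis, linear, from 0) of 4 marker lists in every sample by tissue. The NKT17 sum is highest in the 3 iLN samples (432 to 879 CPM) and the NKT1 sum is lower in the lymph nodes than in thymus and spleen. The regulatory T cell sum is mostly Ikzf2.

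Summed markers of cells that the sort removes were below the iNKT marker sum in every sample, but not below every member. In spleen these sums reached 129 CPM (B cell) and 117 CPM (red cell), above the highest values of Il15ra, Il4ra, Il21r and Il9r. The 5 B cell markers summed to 129 CPM in spleen replicate 1, with Pax5 the most abundant, and to 2.12 to 19.1 CPM elsewhere, with Pax5 at 0 in thymus, and edgeR called 0 of 4 tested over the 4 tissues (3 at an unadjusted p under 0.05, 0 by DESeq2 or limma). Spleen replicate 1 also had the lowest iNKT marker sum of the 15 samples (1963 CPM), a sum that includes general T cell genes. In CPM, its Il2ra, Il2rb, Il4ra and Il15ra were the lowest of the 4 spleen samples. In TPM, spleen replicate 3 was the lowest for each of these genes, with Il2ra at 30.2 TPM against 51.3 TPM in replicate 1. The 6 myeloid markers summed to 48.2 to 79.4 CPM in thymus, mostly Fcer1g, which NK-like T cells also express, and to 5.56 to 55.1 CPM elsewhere, with Itgam, Itgax and Cd14 at 0 in iLN. The 3 NK cell markers summed to at most 3.59 CPM, and the 2 CD8 T cell markers to at most 26.5 CPM, in thymus. The 5 red cell markers summed to 24.00 to 117 CPM in spleen and to at most 14.7 CPM elsewhere, and 4 of 5 were called over the 4 tissues. Of the other lists, myeloid had 1 of 3 tested called (Fcer1g), and NK cell 0 of 1 and CD8 T cell 0 of 2, with 1 and 0 at an unadjusted p under 0.05 and 0 by DESeq2 or limma. The part of these markers in the members' levels was not tested.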

How the data were processed

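RNA of 15 samples of sorted iNKT cells was analysed as deposited, and iLN replicate 1 was not analysed here. Per the submitters' processing notes, the authors trimmed reads with cutadapt 1.7.1 and estimated the deposited expected counts per gene with RSEM 1.2.31 and Bowtie2 2.2.9 on GRCm38. The deposited TPM values come from the same RSEM runs, scaled by the authors to transcript length and a fixed sum, and FPKM was not used.

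Expected counts were rounded and tested in edgeR 4.0.16 (quasi-likelihood, robust, two-sided, TMM factors of 0.755 to 1.18) with tissue and batch after filterByExpr, which kept 13600 genes, in R 4.3.3. Calls needed a p under 0.01, adjusted by Benjamini and Hochberg over all genes tested, and for 2 groups also a fold change over 1.5. Alternatives used DESeq2 1.42.0, limma 3.58.1 on log2 TPM, RLE normalization, no filter, no batch covariate, replicate number as a block, 187 rRNA genes removed (the nuclear rRNA share had a median of 12.8% in the first batch, where iLN replicate 4 had 2.88%, and 3.73% in the second), each batch, pairs of tissues alone, and each library left out. Values were summarised in Python 3.11.15 with numpy 2.4.6, pandas 2.3.3 and scipy 1.17.1, and drawn with matplotlib 3.10.9. Scripts were tested on simulated data.

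Genes named are the 8 members, examples from the lists below beside each list's counts, and for each member called over 4 tissues the 3 genes of highest Pearson correlation in log2(CPM + 1), if their mean reached 5 CPM. Genes singled out within a list were chosen after their values were seen. The lists are ligands, partner chains, JAK and STAT genes, feedback genes, STAT5 target genes, other class I and II cytokine receptors, and markers of iNKT cells, NKT1, NKT2, NKT17, regulatory T cells, B cells, myeloid cells, NK cells, CD8 T cells, immature thymocytes, red cells, and naive T cells and precursors. A marker gene chosen for the lists is not reported here and is in none of their values. Members and lists were chosen with earlier results of these data known.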

Additional observations from a re-analysis of the deposited data

Results flagged for a closer look

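A sample lay far from the others of its tissue in 6 of the 90 groups of 4 samples examined, where the gap to the nearest sample, divided by the range, passed Dixon's 95% limit for 4 samples. Chance alone gives about 1 in 20 groups, or 4.5 of 90. For Il9r, thymus replicate 1 had 1.36 CPM and 0.4 TPM where the other 3 thymus samples had 0, and spleen replicate 3 had 0.249 CPM against 1.42 to 1.65 CPM. The flagged values rest on 11 counts in thymus replicate 1 and 1 count in spleen replicate 3. The summed B cell markers were 129 CPM in spleen replicate 1 against 5.49 to 19.1 CPM in the other spleen samples. The summed naive T cell and precursor markers were 112 CPM in the same sample against 57.6 to 66.5 CPM. The summed NK cell markers were 1.74 CPM in mLN replicate 2 against 0.1297 to 0.385 CPM. Groups of 3 samples, all of iLN, were not examined this way.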

How the results depend on the processing

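Of 1442 alternatives to the 56 results of the members, 1344 left the direction and the side of the threshold as they were, 51 lost a call, 13 gained a call and 34 turned the sign of a fold change. The 11 called results had 281 of these alternatives, and 0 turned. For Il2ra the calls of thymus against spleen, mLN against thymus and iLN against thymus held in 26 of 26 alternatives each, the test over 4 tissues in 25 of 25, and the lymph nodes against spleen and thymus in 24 of 25. For Il7r the call held in 24 of 26 alternatives for iLN against spleen, 20 of 26 for iLN against mLN, 16 of 26 for iLN against thymus, 11 of 25 for the lymph nodes against spleen and thymus and 22 of 25 over 4 tissues, and for Il2rb in the lymph nodes in 10 of 25.

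The counts of genes called, in the order thymus against spleen, mLN against spleen, iLN against spleen, mLN against thymus, iLN against thymus, iLN against mLN, lymph nodes against spleen and thymus and over 4 tissues, were 179, 89, 211, 217, 204, 64, 234 and 459 in edgeR, 387, 248, 556, 414, 472, 276, 478 and 1002 in DESeq2 and 393, 273, 544, 435, 480, 279, 532 and 1134 with no filter on low counts. Limma called fewer, 100, 15, 87, 107, 111, 43, 103 and 218 on log2(TPM + 1) and 86, 11, 59, 98, 96, 27, 81 and 182 on log2(TPM + 0.1). The edgeR counts were 45, 0, 81, 55, 114, 23, 95 and 180 in the first batch alone and 27, 0, 4, 31, 7, 3, 2 and 41 in the second. Without the batch covariate, 29 for mLN against spleen, 129 for iLN against spleen, 123 for iLN against thymus and 40 for iLN against mLN were called, and with only the 2 tissues compared 310 for thymus against spleen, 15 for mLN against spleen, 75 for iLN against spleen and 19 for iLN against mLN. That last choice cannot be made for the lymph nodes against spleen and thymus, which takes all 4 tissues.

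Leaving out 1 library gave 114 to 222 genes for thymus against spleen, 24 to 99 genes for mLN against spleen, 108 to 267 genes for iLN against spleen, 125 to 235 genes for mLN against thymus, 104 to 236 genes for iLN against thymus, 44 to 66 genes for iLN against mLN, 158 to 255 genes for lymph nodes against spleen and thymus and 327 to 493 over 4 tissues. Counts moved by over 1.5 times were 114 without thymus replicate 1 and 115 without spleen replicate 4 for thymus against spleen, 55 without thymus replicate 3, 55 without thymus replicate 4, 33 without spleen replicate 1, 32 without spleen replicate 2, 28 without spleen replicate 3, 25 without spleen replicate 4, 59 without mLN replicate 1, 49 without mLN replicate 2, 24 without mLN replicate 3 and 32 without mLN replicate 4 for mLN against spleen, 138 without spleen replicate 3, 108 without spleen replicate 4, 131 without iLN replicate 2 and 138 without iLN replicate 4 for iLN against spleen, 134 without thymus replicate 1, 141 without thymus replicate 2, 125 without thymus replicate 3, 136 without thymus replicate 4 and 144 without mLN replicate 3 for mLN against thymus and 104 without thymus replicate 3, 112 without thymus replicate 4 and 127 without iLN replicate 4 for iLN against thymus.

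The log2 fold change of Il7r in iLN against thymus, which lost its call in each of these, was 0.81 without the batch covariate, 1.14 and 0.49 in the first and second batch, 0.88 with the 2 tissues only and 0.96 and 0.97 in limma on log2(TPM + 1) and log2(TPM + 0.1). For Il7r in iLN against mLN these were 1.09, 1.38, 0.80, 1.16, 1.16 and 1.16. For iLN against spleen Il7r lost its call in the second batch at 1.19 and in limma with the pseudocount of 0.1 at 1.51. For the lymph nodes against spleen and thymus, Il7r had 0.55 without the batch covariate, 0.65 and 0.44 in the batches and 0.65 and 0.66 in limma, where Il2rb had −0.61, −0.75, −0.54, −0.55 and −0.55, and Il2ra had 1.99 in the second batch, each without its call. Over 4 tissues the adjusted p of Il7r was 0.0801 in edgeR on the second batch and 0.0218 and 0.0255 in limma. Leaving out 1 library, Il7r ranged over 0.60 to 1.07 in iLN against thymus and 0.44 to 0.68 in the lymph nodes against spleen and thymus, and Il2rb over −0.74 to −0.56.

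Among results not called, these turned their sign. Il21r in thymus against spleen was 0.00190 with RLE and 0.00677 in the second batch. Il4ra in iLN against thymus was 0.14 without the batch covariate and 0.51 in the first batch, in mLN against spleen −0.14 in the first batch and −0.43 and −0.44 in limma, and in the lymph nodes against spleen and thymus −0.52 in the second batch and −0.33 and −0.35 in limma. In iLN against mLN, Il2rb was −0.10 and Il2rg −0.18 in the second batch, and Il15ra in iLN against thymus was 0.0652 and 0.0546 in limma. Leaving out 1 library, the ranges that cross 0 were −0.12 to 0.10 for Il2rb in thymus against spleen, −0.0606 to 0.0463 for Il21r in thymus against spleen, −0.0643 to 0.33 for Il4ra in mLN against spleen, −0.79 to 0.0143 for Il4ra in iLN against spleen, −0.38 to 0.44 for Il4ra in iLN against thymus, −0.79 to 0.0358 for Il15ra in iLN against thymus, −0.16 to 0.20 for Il2rb in iLN against mLN, −0.0903 to 0.31 for Il2rg in iLN against mLN and −0.0936 to 0.31 for Il4ra in lymph nodes against spleen and thymus.

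A block of replicate number, fitted instead of batch, gave counts of 174, 66, 175, 204, 161, 60, 197 and 404, in the order above, and turned Il2rb in iLN against mLN to −0.0232. Samples that share a number did not all deviate together, with a mean correlation of 0.122 (lowest 0.00151) over 21 pairs, against 0.107 over 21 pairs of another number in the same batch and −0.111 over 42 pairs across batches, so the number was not used as pairing.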
